A study of Mus musculus with 20 samples.

Results

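The acute phase and calgranulin genes of the mouse liver were followed through a cross of genotype and diet. They were chosen by name, as Saa1, Saa2, Saa3, Lcn2, Orm1, Orm2, Hp, S100a8, S100a9 and Crp, and every probe set of the array whose only gene symbol was one of these 10 names was taken. Of the 10 genes, 9 had such a probe set, and Saa2 had 2 of them, which gave 10 probe sets of 45037 and 9 genes of 17097. Orm1 had no probe set with its symbol alone and has no value here. Total RNA from the livers of 20 mice aged 11 weeks had been hybridised to Affymetrix arrays, with 1 array per mouse and 5 mice in each of 4 groups. The groups were Ercc1Δ/- mice on restricted food, Ercc1Δ/- mice on control diet, wild type mice on restricted food and wild type mice on control diet. All mice were littermates with the same F1 C57BL6J/FVB hybrid background, and all were kept on AIN93G synthetic pellets. Ercc1Δ/- mice carry 1 truncated and 1 null allele of a nucleotide excision repair gene in every cell, and are called progeroid here because they age early. Restriction began at 7 weeks of age at 10%, with 30% from 9 weeks on. At 30% wild type mice had 2.1 g of food per day, against 3.0 g eaten by wild type mice on control diet. Food was given shortly before the dark period. The sources used here give neither the sex of the mice nor the time of day at which livers were taken.

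Acute phase proteins are plasma proteins whose production by hepatocytes changes during inflammation, mainly under interleukin 6 and interleukin 1, which act through the transcription factors STAT3, C/EBP and NF-κB, and glucocorticoids strengthen the response. In mice the serum amyloid A proteins are the most responsive members of the class, whereas C-reactive protein, a main marker of inflammation in humans, responds weakly. The calgranulins S100A8 and S100A9 form a calcium- and zinc-binding dimer that is abundant in neutrophils and monocytes and signals to other cells when released.

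The arrays gave values on a log2 scale made with RMA, which places all arrays on a common distribution. A difference of 1 on this scale is a 2-fold difference, the scale has no zero point, and folds of dim genes are understated. A gene with a mean under 5 in all 4 groups is called dim below. Levels are given as mean ± SD over 5 mice and differences as log2 fold change ± SE from a limma model over all 17097 genes. The threshold for a rise or a fall was an adjusted p (Benjamini-Hochberg) of 0.05. The level of one probe set is not set against that of another. Ercc1 averaged 4.80 ± 0.24 in progeroid restricted livers, 5.30 ± 0.15 in progeroid control livers, 6.15 ± 0.12 in wild type restricted livers and 6.54 ± 0.07 in wild type control livers. Its log2 fold change, progeroid over wild type, was -1.35 ± 0.10 on restricted food and -1.24 ± 0.10 on control diet (limma, adjusted p = 1.5e-08 and 8.73e-08), and the groups did not overlap. With suffixed probe sets left out, another Ercc1 probe set stands for the gene, and its log2 differences were 0.02 on both diets. Hepatocyte markers were bright in all livers, with the mean log2 level of 12 markers between 12.99 and 13.22 on every array. Pairs of arrays correlated between 0.979 and 0.997 across probe sets.

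The members did not move as 1 block. In each genotype comparison 6 of the 9 measured members were higher and 0 lower in limma, with 0 lower also at an unadjusted p under 0.05. In progeroid restricted livers, against wild type restricted livers, Saa1, Saa2, Saa3, Lcn2, S100a8 and S100a9 were higher, where 11.8% of all genes were higher, 5.44% lower and 17.2% called in either direction. In progeroid control livers, against wild type control livers, Lcn2, S100a8, S100a9, Saa3, Orm2 and Hp were higher, where 6.70% of all genes were higher and 4.32% lower. Food restriction moved the members in both directions. In restricted progeroid livers, against progeroid livers on control diet, Saa1, Saa3 and Crp were lower and 0 members were higher (1 at an unadjusted p under 0.05, Lcn2), where 5.07% of all genes were lower and 6.94% higher. In restricted wild type livers, against wild type livers on control diet, Saa1, Saa2, Saa3 and Crp were lower and Lcn2 and Orm2 were higher, where 12.6% of all genes were lower and 9.92% higher. Of the 9 members, only Lcn2 passed the test of a difference between the diet effects of the genotypes, a test that 1.40% of all genes passed (1.03% higher and 0.374% lower). Each group enters 1 genotype and 1 diet comparison, so the comparisons share samples and their values are not independent. The members were chosen with earlier results of these data known, so their counts are not those of an unselected set. Saa1 and Saa2 both enter the counts although their probes can read both genes. In such bulk samples more cells of a type and more RNA per cell cannot be told apart. Scaling bears on the genotype comparisons. Subtracting each array's median over genes lowered all log2 fold changes by 0.17 on restricted food and by 0.10 on control diet, and among the members it ended the call of Hp and added Saa1 on control diet. The genome-wide split then became 1158 genes higher and 6513 lower on restricted food, and 764 higher and 2798 lower on control diet. As deposited, the splits were 2018 higher and 930 lower on restricted food and 1145 higher and 738 lower on control diet. The median log2 fold change over all genes was then -0.0026 and -0.014, so the centring shifted a middle that already lay close to no difference. The diet splits moved as well. Under centring they went from 1186 higher and 867 lower to 940 and 1133 in progeroid livers, and from 1696 and 2146 to 1924 and 1688 in wild type livers.

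**Figure D1:**
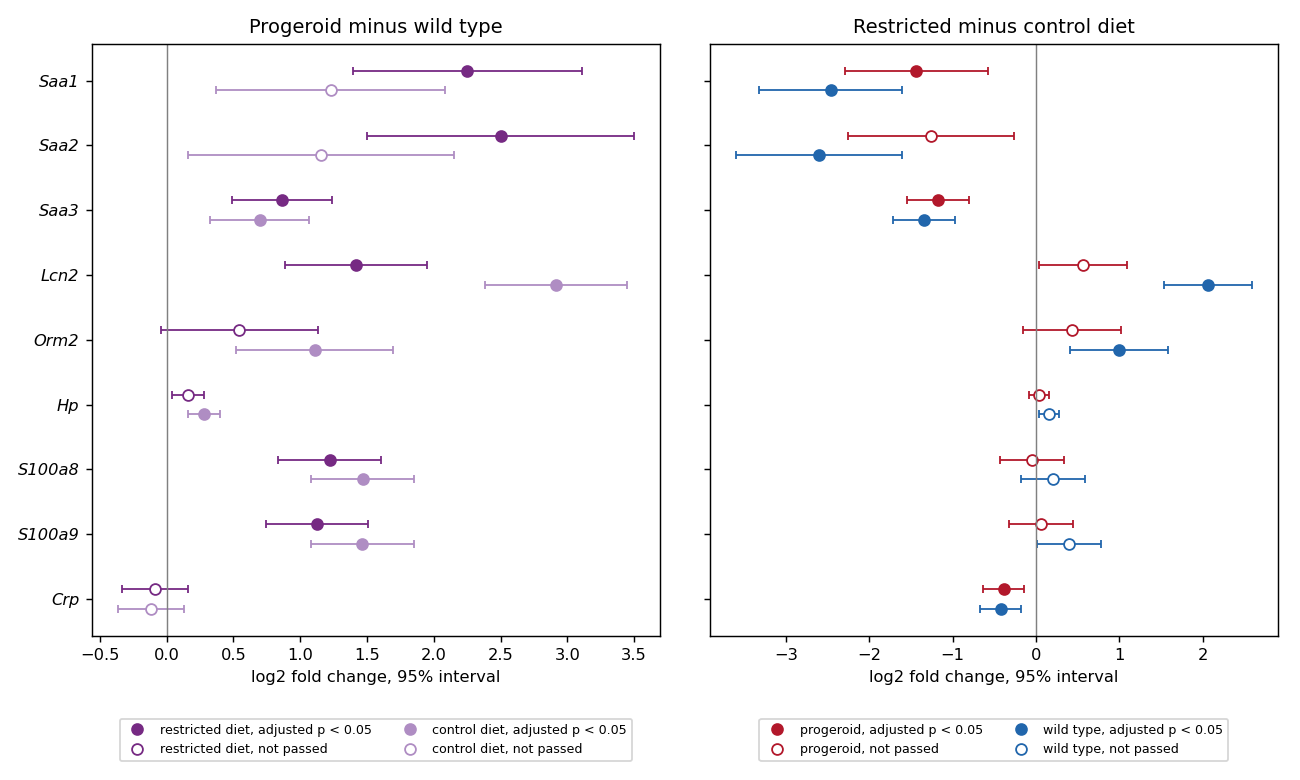
Log2 fold changes of the 9 measured members with 95% intervals, progeroid minus wild type on each diet (left) and restricted minus control diet in each genotype (right). Filled points passed an adjusted p under 0.05. The 3 Saa genes and Crp lie left of zero in the diet panel, while Lcn2 and Orm2 lie right of it.

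The serum amyloid A genes Saa1 and Saa2 encode the apolipoproteins that the liver releases onto high-density lipoprotein in the acute phase, and Saa3 encodes a related form made in liver and in many other tissues, including macrophages and fat. In the RefSeq gene order Saa3, Saa4, Saa1 and Saa2 follow one another on chromosome 7. Saa1 and Saa2 are close copies, so probes can read both. The probe set used for Saa2 and its second probe set carry the suffixes s and x, which mark probes that can match several transcripts, and the 2 genes' values cannot be taken as separate measurements. The 250 bases before the start sites of the 3 genes are shown because all 3 genes fell under restriction in wild type livers. They are from RefSeq, build GRCm38.p6, and read 5′ to 3′ on the strand of the gene. Capitals mark matches to the C/EBP motif TTNNGCAA on either strand.
Saa1, chr7:46742981-46743230, minus strand: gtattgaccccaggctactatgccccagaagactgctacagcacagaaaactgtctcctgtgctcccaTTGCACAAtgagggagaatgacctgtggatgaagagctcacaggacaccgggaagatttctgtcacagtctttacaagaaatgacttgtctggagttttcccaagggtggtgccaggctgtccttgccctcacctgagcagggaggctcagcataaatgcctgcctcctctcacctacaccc
Saa2, chr7:46751583-46751832, plus strand: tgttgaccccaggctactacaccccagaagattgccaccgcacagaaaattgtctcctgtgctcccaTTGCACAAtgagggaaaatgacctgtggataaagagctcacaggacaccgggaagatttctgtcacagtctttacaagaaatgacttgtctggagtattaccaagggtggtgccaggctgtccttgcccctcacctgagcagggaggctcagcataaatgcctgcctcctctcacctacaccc
Saa3, chr7:46715677-46715926, minus strand: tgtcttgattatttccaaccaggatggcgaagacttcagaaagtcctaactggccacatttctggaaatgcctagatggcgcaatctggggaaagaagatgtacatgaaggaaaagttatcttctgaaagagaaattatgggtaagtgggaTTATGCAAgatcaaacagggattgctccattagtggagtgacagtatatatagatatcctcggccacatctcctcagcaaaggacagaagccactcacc
The Saa1 and Saa2 stretches were identical at 238 of 249 aligned bases (95.6%), and both held the motif, from position -182 to -175 of Saa1 and from -183 to -176 of Saa2, counted from the start site. In Saa3 the match ran from -99 to -92.

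Saa1 measured 8.21, 9.30, 9.62, 9.61 and 9.47 in progeroid restricted livers and 9.88, 10.87, 11.02, 11.23 and 10.41 in progeroid control livers (log2). It measured 8.80, 6.26, 6.26, 6.02 and 7.62 in wild type restricted livers and 9.80, 9.25, 9.62, 9.27 and 9.32 in wild type control livers. Within each genotype every restricted liver lay below every control liver. Progeroid control livers all lay above wild type control livers, while the restricted groups overlapped, because wild type restricted animal 421, at 8.80, lay above progeroid restricted animal 362, at 8.21. Group levels were 9.24 ± 0.59 in progeroid restricted, 10.68 ± 0.54 in progeroid control, 6.99 ± 1.19 in wild type restricted and 9.45 ± 0.24 in wild type control livers. Progeroid control livers thus had the highest mean and wild type restricted livers the lowest, and progeroid restricted livers overlapped with wild type control livers, a pair that was not tested.

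Restriction was followed by a fall of Saa1 in both genotypes. Restricted over control diet, its log2 fold change was -1.44 ± 0.41 in progeroid livers (2.71-fold lower, adjusted p = 0.0265, limma) and -2.46 ± 0.41 in wild type livers (5.51-fold lower, adjusted p = 0.000199). The progeroid fall missed the threshold without animal 362, at -1.18 with adjusted p = 0.0776, without control animals 323, 325 or 326, and with trend and robust set (adjusted p = 0.0523). Progeroid over wild type, the log2 fold change was 2.25 ± 0.41 on restricted food (4.77-fold, adjusted p = 0.000642) and 1.23 ± 0.41 on control diet (2.34-fold, adjusted p = 0.0592). The second of these missed the threshold although the groups did not overlap. It passed without wild type restricted animal 421, whose value of 8.80 enters the shared error, at the same 1.23 with adjusted p = 0.0112, and without animals 321, 362 or 424 (adjusted p between 0.0367 and 0.0486). It also passed with median-centred arrays, a filter on dim genes, only the compared groups or array weights (adjusted p between 0.00427 and 0.0475). The diet effect in progeroid livers minus that in wild type livers was 1.02 ± 0.58, with a 95% interval from -0.19 to 2.24 and adjusted p = 0.449.

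Saa2 passed in wild type livers under restriction and in the genotype comparison on restricted food, as Saa1 did, but not under restriction in progeroid livers. It measured 8.18, 9.23, 9.62, 9.67 and 9.61 in progeroid restricted livers and 9.83, 10.70, 10.68, 11.11 and 10.27 in progeroid control livers (log2). It measured 8.93, 5.62, 5.91, 5.68 and 7.66 in wild type restricted livers and 9.67, 9.14, 9.51, 9.13 and 9.36 in wild type control livers. Animals 421 and 425 stood above the other 3 wild type restricted livers for Saa1 and for Saa2 alike. Restricted over control diet, the log2 fold change was -1.26 ± 0.48 in progeroid livers (adjusted p = 0.0971) and -2.60 ± 0.48 in wild type livers (6.07-fold lower, adjusted p = 0.000502). Progeroid over wild type, it was 2.50 ± 0.48 on restricted food (5.66-fold, adjusted p = 0.000963) and 1.16 ± 0.48 on control diet (adjusted p = 0.134). The progeroid diet effect and the genotype effect on control diet both passed when only the compared groups entered the fit (adjusted p = 0.0188 and 0.0037) and without wild type restricted animal 421, with adjusted p = 0.0209 for the diet effect in progeroid livers and 0.0338 for the genotype effect on control diet. The difference of diet effects was 1.34 ± 0.68 with all mice (adjusted p = 0.382) and 1.89 without animal 421 (adjusted p = 0.0463). The second Saa2 probe set averaged 8.32 ± 0.45 in progeroid restricted, 9.30 ± 0.42 in progeroid control, 6.27 ± 1.20 in wild type restricted and 8.17 ± 0.37 in wild type control livers. With p-values adjusted over 45037 probe sets it made the same calls, with a log2 fold change of -1.90 for restriction in wild type livers (adjusted p = 0.00194) and 2.04 for genotype on restricted food (adjusted p = 0.00165).

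Saa3 had the tightest groups of the 3 genes in wild type mice on restricted food. It measured 6.34, 7.42, 7.35, 7.09 and 7.40 in progeroid restricted livers and 8.19, 8.33, 8.59, 8.40 and 7.97 in progeroid control livers (log2). It measured 6.53, 6.15, 6.16, 6.06 and 6.37 in wild type restricted livers and 7.97, 7.81, 7.44, 7.53 and 7.24 in wild type control livers. The diets did not overlap within either genotype, and the genotypes overlapped on restricted food and met without overlap on control diet, at 7.97 in progeroid animal 327 and wild type animal 401. Saa3 fell with restriction in both genotypes, with a log2 fold change of -1.17 ± 0.18 in progeroid livers (2.26-fold lower, adjusted p = 0.00024) and -1.34 ± 0.18 in wild type livers (2.53-fold lower, adjusted p = 1.74e-05). It was higher in progeroid livers on both diets, by 0.86 ± 0.18 on restricted food (1.82-fold, adjusted p = 0.00183) and by 0.70 ± 0.18 on control diet (1.62-fold, adjusted p = 0.0136). These 4 calls held in every alternative that measured the gene. The difference of diet effects was 0.17 ± 0.25 with a 95% interval from -0.36 to 0.69.

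**Figure D2:**
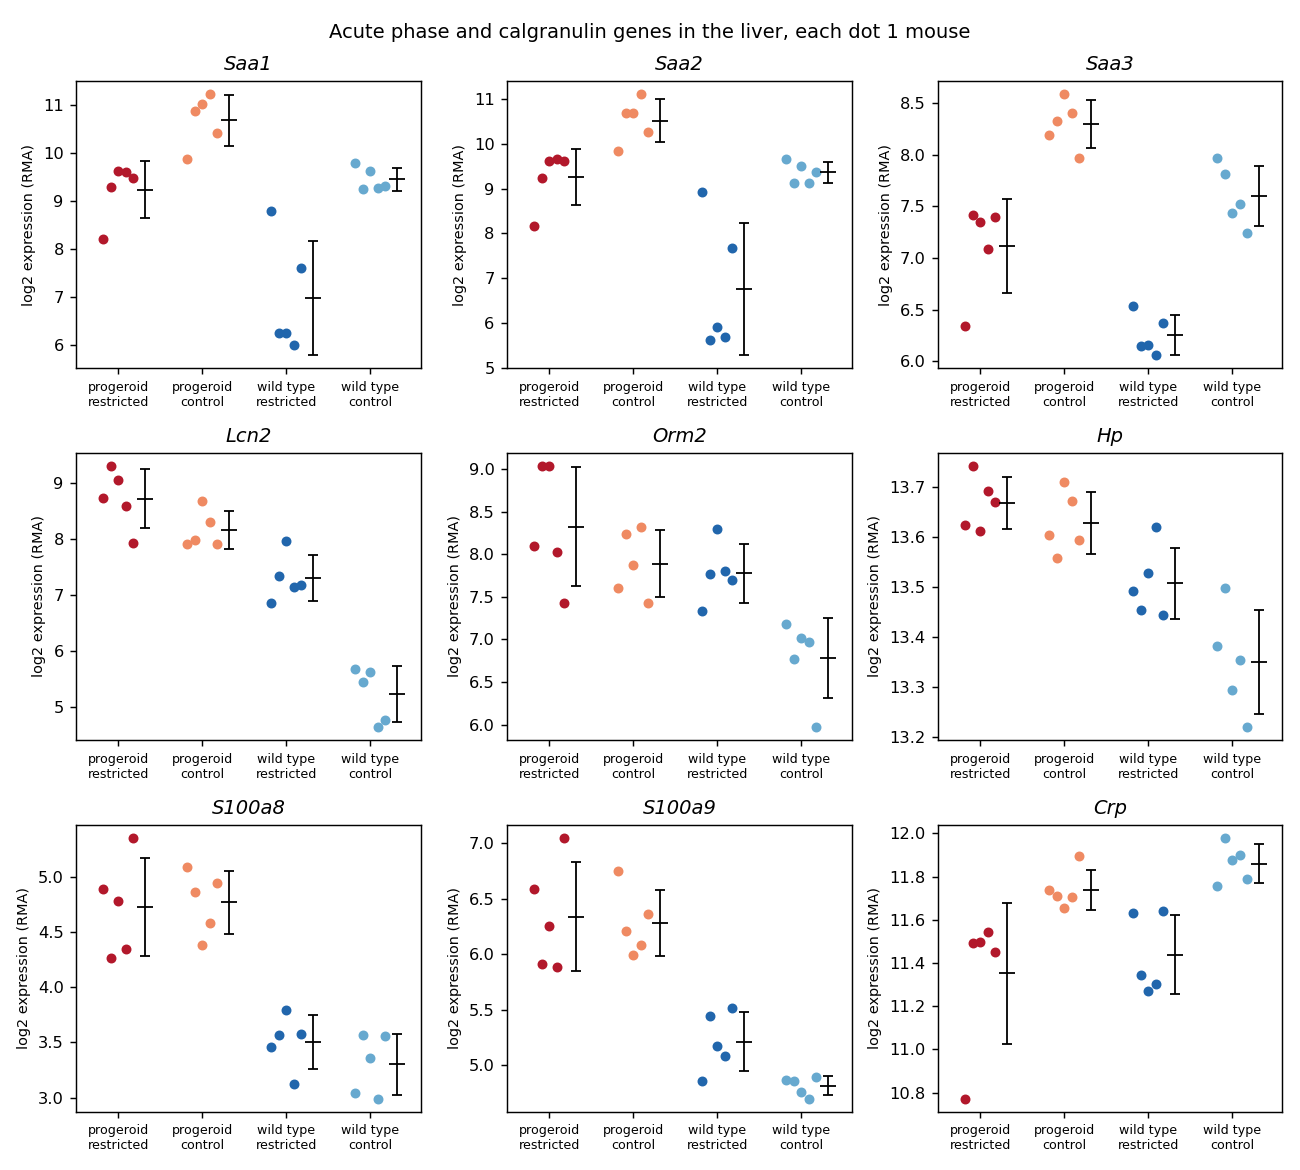
Log2 RMA values of the 9 measured members in each of 20 livers, by group, with group means and SD (n = 5). Each point is 1 mouse. Lcn2 rises with restriction in wild type livers while the Saa genes fall, and S100a8 and S100a9 separate by genotype on both diets.

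Lcn2 encodes lipocalin 2, a secreted protein that holds iron-laden bacterial siderophores away from microbes and that hepatocytes and neutrophils both make. Orm2 encodes an α1-acid glycoprotein, a plasma carrier of basic and lipid-like molecules, and lies in a cluster with Orm1 and Orm3 on chromosome 4. Hp encodes haptoglobin, which binds free haemoglobin for clearance. The upstream 250 bases of Lcn2 and Orm2 (RefSeq, GRCm38.p6, gene strand, 5′ to 3′) are shown because these genes moved opposite to the Saa genes under restriction in wild type livers while holding the same motif, again in capitals.
Lcn2, chr2:32387740-32387989, minus strand: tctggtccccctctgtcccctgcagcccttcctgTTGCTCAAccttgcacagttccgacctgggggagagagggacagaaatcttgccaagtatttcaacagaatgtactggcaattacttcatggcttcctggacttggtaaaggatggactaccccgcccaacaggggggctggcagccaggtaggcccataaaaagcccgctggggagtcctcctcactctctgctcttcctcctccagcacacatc
Orm2, chr4:63362199-63362448, plus strand: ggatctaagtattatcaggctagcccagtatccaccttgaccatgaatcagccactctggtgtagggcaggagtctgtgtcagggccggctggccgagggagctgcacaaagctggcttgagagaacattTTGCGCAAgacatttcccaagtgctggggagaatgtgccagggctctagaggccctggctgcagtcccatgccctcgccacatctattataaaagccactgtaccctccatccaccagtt
The match ran from -216 to -209 in Lcn2 and from -120 to -113 in Orm2, where the letters read as a match on both strands.

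Lcn2 measured 8.73, 9.30, 9.05, 8.58 and 7.93 in progeroid restricted livers and 7.90, 7.99, 8.68, 8.30 and 7.90 in progeroid control livers (log2). It measured 6.87, 7.33, 7.97, 7.14 and 7.18 in wild type restricted livers and 5.69, 5.45, 5.63, 4.65 and 4.77 in wild type control livers. All wild type control livers lay below the other 15 livers, and the 2 progeroid groups overlapped. Group levels were 8.72 ± 0.52 in progeroid restricted, 8.15 ± 0.33 in progeroid control, 7.30 ± 0.41 in wild type restricted and 5.24 ± 0.49 in wild type control livers. Progeroid over wild type, Lcn2 was higher by 1.42 ± 0.25 on restricted food (2.67-fold, adjusted p = 0.000532) and by 2.91 ± 0.25 on control diet (7.54-fold, adjusted p = 2.61e-07). Restricted over control diet, its log2 fold change was 0.56 ± 0.25 in progeroid livers (95% interval 0.04 to 1.09, adjusted p = 0.166), and it rose by 2.06 ± 0.25 in wild type livers (4.17-fold, adjusted p = 7.13e-06). The 2 diet effects differed by -1.50 ± 0.36 (progeroid minus wild type, 95% interval -2.24 to -0.75, adjusted p = 0.0413). That call was near the threshold and was lost when any 1 of 13 mice was left out, with the log2 difference between -1.56 and -1.30 and adjusted p between 0.0533 and 0.0802. The direction held in every alternative that measured the gene.

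**Figure D3:**
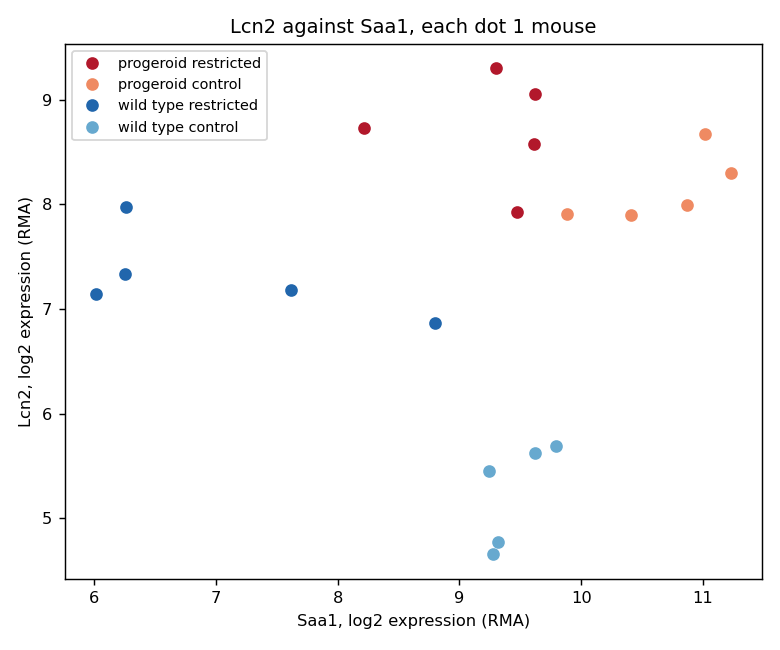
Lcn2 against Saa1 in the 20 livers, both as log2 RMA values, coloured by group. Wild type restricted livers lie at higher Lcn2 and lower Saa1 than wild type control livers, and progeroid control livers are high in both.

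Orm2 measured 8.09, 9.04, 9.04, 8.03 and 7.43 in progeroid restricted livers and 7.60, 8.24, 7.88, 8.32 and 7.42 in progeroid control livers (log2). It measured 7.33, 7.76, 8.30, 7.80 and 7.70 in wild type restricted livers and 7.18, 6.77, 7.01, 6.97 and 5.97 in wild type control livers. As with Lcn2, the wild type control livers lay below all others. Orm2 was higher in progeroid than in wild type livers on control diet, by 1.11 ± 0.28 (2.16-fold, adjusted p = 0.013), and rose with restriction in wild type livers, by 1.0 ± 0.28 (2.0-fold, adjusted p = 0.0143). The log2 fold change was 0.55 ± 0.28 for genotype on restricted food (adjusted p = 0.206) and 0.43 ± 0.28 for restriction in progeroid livers (adjusted p = 0.367). The difference of diet effects was -0.56 ± 0.40, with a 95% interval from -1.40 to 0.27. The neighbouring paralog Orm3 was looked at after its values were seen. It rose with restriction in wild type livers, by 1.47 ± 0.25 (adjusted p = 0.000207), and was lower in progeroid than in wild type livers on restricted food, at -1.25 ± 0.25 (adjusted p = 0.00129), and probes of these paralogs may share targets.

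Hp varied little between livers. It measured between 13.22 and 13.74 in all 20 livers, near the highest value on the arrays, 14.51. Progeroid control livers, at 13.63 ± 0.06, were higher than wild type control livers, at 13.35 ± 0.10, by 0.28 ± 0.06 (1.21-fold, adjusted p = 0.00304), and the groups did not overlap. That call was lost when each array was centred on its median, at 0.18 with adjusted p = 0.0568. The genotype effect on restricted food was 0.16 ± 0.06 (adjusted p = 0.0617) and turned to -0.01 under the same centring. Restriction gave 0.04 ± 0.06 in progeroid livers (adjusted p = 0.724) and 0.16 ± 0.06 in wild type livers (adjusted p = 0.0559). The genotype effect on restricted food and the diet effect in wild type livers each passed under 6 alternatives, with adjusted p between 0.0283 and 0.0469 and between 0.0211 and 0.0489.

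Crp encodes C-reactive protein, a pentraxin that binds phosphocholine on microbes and dying cells. It measured 10.77, 11.49, 11.50, 11.55 and 11.45 in progeroid restricted livers and 11.74, 11.71, 11.65, 11.71 and 11.90 in progeroid control livers (log2). It measured 11.63, 11.35, 11.27, 11.30 and 11.64 in wild type restricted livers and 11.75, 11.98, 11.88, 11.90 and 11.79 in wild type control livers. Every restricted liver lay below every control liver of its genotype. Crp fell with restriction by 0.39 ± 0.12 in progeroid livers (1.31-fold lower, adjusted p = 0.0365) and by 0.42 ± 0.12 in wild type livers (1.34-fold lower, adjusted p = 0.0133). The call in progeroid livers was near the threshold. It was lost without restricted animal 362, at -0.24 (adjusted p = 0.0665), and without control animal 321, 323, 326 or 327, at -0.40 to -0.35 (adjusted p between 0.0557 and 0.0773). It was also lost when only the compared groups entered the fit (adjusted p = 0.0907) and with an RNA quality covariate, the 3′ to 5′ difference of the Gapdh control probe sets (-0.36, adjusted p = 0.0608). Genotype effects were -0.09 ± 0.12 on restricted food (adjusted p = 0.692) and -0.12 ± 0.12 on control diet (adjusted p = 0.594), so the data give intervals of -0.33 to 0.16 and -0.37 to 0.13 and no call. The neighbouring pentraxin gene Apcs, which encodes serum amyloid P, a main acute phase protein of mice, went the other way. Apcs rose with restriction by 0.50 ± 0.14 in progeroid livers (adjusted p = 0.0222) and by 1.18 ± 0.14 in wild type livers (2.27-fold, adjusted p = 4.32e-06).

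The calgranulin genes separated by genotype, and 0 of their diet comparisons passed in limma. S100a9 measured 6.59, 5.91, 6.25, 5.88 and 7.05 in progeroid restricted livers and 6.75, 6.21, 5.99, 6.08 and 6.36 in progeroid control livers (log2). It measured 4.86, 5.44, 5.17, 5.08 and 5.51 in wild type restricted livers and 4.87, 4.85, 4.76, 4.70 and 4.89 in wild type control livers. All 10 progeroid livers lay above all 10 wild type livers. S100a9 was higher in progeroid livers by 1.13 ± 0.18 on restricted food (2.18-fold, adjusted p = 0.000227) and by 1.47 ± 0.18 on control diet (2.76-fold, adjusted p = 2.19e-05). Restriction gave 0.06 ± 0.18 in progeroid livers (95% interval -0.33 to 0.44) and 0.40 ± 0.18 in wild type livers (95% interval 0.01 to 0.78, adjusted p = 0.137). When only the 2 wild type groups entered the fit, the wild type difference passed with adjusted p = 0.027.

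S100a8 was dim in every group, so its folds are understated. Its only probe set carries the suffix s, so its probes can match several transcripts. It measured 4.89, 4.26, 4.78, 4.35 and 5.35 in progeroid restricted livers and 5.09, 4.86, 4.38, 4.58 and 4.94 in progeroid control livers. It measured 3.45, 3.56, 3.80, 3.13 and 3.58 in wild type restricted livers and 3.04, 3.57, 3.35, 2.99 and 3.55 in wild type control livers. Again all progeroid livers lay above all wild type livers. S100a8 was higher in progeroid livers by 1.22 ± 0.19 on restricted food (2.33-fold, adjusted p = 0.000105) and by 1.47 ± 0.19 on control diet (2.77-fold, adjusted p = 2.19e-05). Restriction gave -0.04 ± 0.19 in progeroid livers (95% interval -0.43 to 0.34) and 0.20 ± 0.19 in wild type livers (95% interval -0.18 to 0.59), and the sign in progeroid livers turned in 4 alternatives.

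Markers of the blood cells that carry calgranulins were read beside these values. All 23 measured of 29 neutrophil markers were dim in all 4 groups. Their mean log2 level ran from 3.52 to 3.58 in progeroid restricted, 3.53 to 3.65 in progeroid control, 3.51 to 3.57 in wild type restricted and 3.54 to 3.63 in wild type control livers. Over all genes 17.2% passed in the genotype comparison on restricted food and 11.0% on control diet. Of the 23 markers 0 passed in limma in these comparisons, with 1 higher and 1 lower at an unadjusted p under 0.05 on each diet. Their median log2 fold changes were -0.0083 on restricted food and -0.021 on control diet, against -0.0026 and -0.014 over all genes, and alternatives gave at most 1 higher and 9 lower on restricted food. Elane, which encodes neutrophil elastase, averaged 3.84 ± 0.05, 3.84 ± 0.15, 3.84 ± 0.09 and 3.87 ± 0.06 in the same order of groups, and Camp, the cathelicidin gene, averaged between 3.57 and 3.66. Mpo, the myeloperoxidase gene, averaged 3.40 ± 0.03 in progeroid restricted, 3.52 ± 0.08 in progeroid control, 3.42 ± 0.07 in wild type restricted and 3.57 ± 0.10 in wild type control livers. Of the 23, Il1r2 alone passed in a diet comparison, by 0.26 ± 0.08 in progeroid livers (adjusted p = 0.0439).

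Some monocyte and macrophage markers were higher in progeroid livers, where 11.8% of all genes were higher on restricted food and 6.70% on control diet. Of 9 measured monocyte markers, 6 of them dim, 4 were higher on restricted food and 3 on control diet, and 0 were lower. Plac8 was higher by 1.36 ± 0.16 on restricted food and 1.17 ± 0.16 on control diet, Lyz2, the lysozyme gene of monocytes and macrophages, by 0.63 ± 0.09 and 0.62 ± 0.09, and Chil3 by 1.06 ± 0.21 and 1.02 ± 0.21. The mean log2 level of the 9 ran from 5.87 to 5.97 in progeroid restricted, 5.90 to 6.04 in progeroid control, 5.39 to 5.62 in wild type restricted and 5.60 to 5.76 in wild type control livers. With restriction 1 of the 9 fell and 0 rose in progeroid livers. In wild type livers 3 of the 9 fell and 0 rose, Lyz2 at -0.29 ± 0.09 (limma, adjusted p = 0.0306) among them. All 14 markers of Kupffer cells, the resident macrophages of the liver, were measured, and 11 were higher in progeroid livers on restricted food and 3 on control diet, with medians of 0.66 and 0.38. Clec4f, a marker particular to Kupffer cells, was higher by 0.89 ± 0.13 on restricted food (adjusted p = 6.51e-05) and 0.48 ± 0.13 on control diet (adjusted p = 0.017). The mean of the 14 ran from 8.34 to 9.13 in progeroid restricted, 8.31 to 8.94 in progeroid control, 7.65 to 8.16 in wild type restricted and 8.08 to 8.50 in wild type control livers. The part of these cells in the levels of S100a8, S100a9, Lcn2 and Saa3, which macrophages can make, was not tested. Under restriction 1 of the 14 Kupffer markers, Marco, rose in progeroid livers by 1.15 ± 0.36 (adjusted p = 0.0425) and 0 fell (2 at an unadjusted p under 0.05). In wild type livers 4 fell and 0 rose, Adgre1 at -0.94 ± 0.14 (adjusted p = 6.45e-05) among them. Over all genes 6.94% rose and 5.07% fell with restriction in progeroid livers, and 9.92% rose and 12.6% fell in wild type livers.

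**Figure D4:**
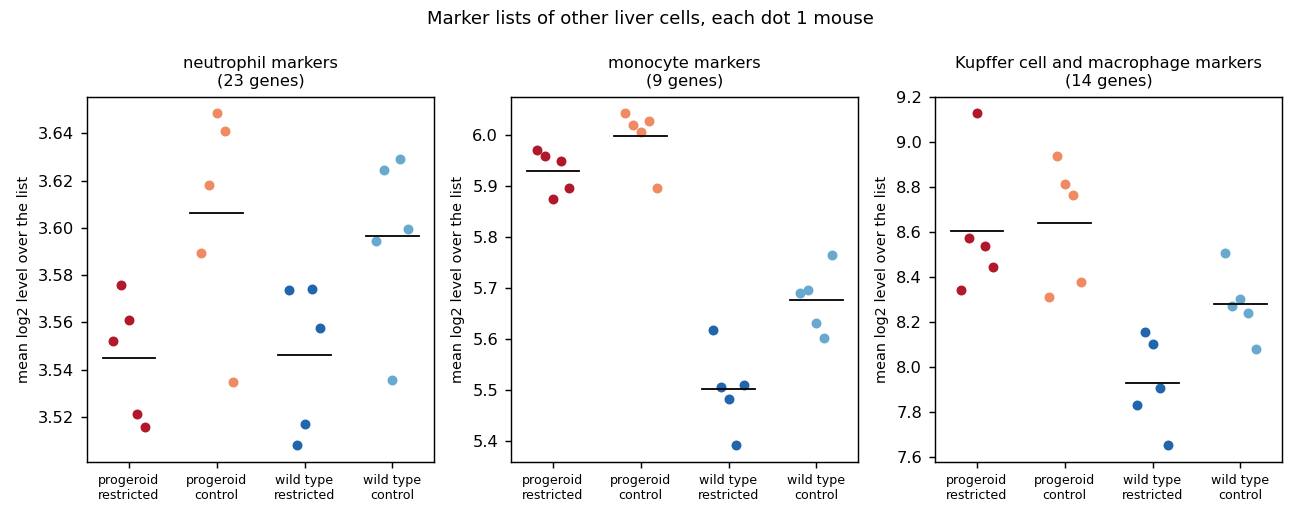
Mean log2 level of marker lists per liver, by group, with each point 1 mouse. Neutrophil markers lie between 3.51 and 3.65 in all groups, whereas Kupffer cell and monocyte markers lie higher in progeroid than in wild type livers on restricted food.

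RNA quality was read from the 3′ to 5′ difference of the Gapdh control probe sets. It averaged 0.93 ± 0.28 in progeroid control livers and 0.66 ± 0.06 in wild type control livers (exact permutation test, two-sided, p = 0.0476, adjusted p = 0.296 over 8 comparisons, smallest possible p 0.00794). No other of the 8 comparisons had a p below 0.111. With this difference as a covariate the call of Crp under restriction in progeroid livers was lost, and the other member calls held.

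Of 26 measured of 32 further genes of the positive acute phase, 3 were higher and 3 lower in progeroid livers on restricted food, where 11.8% of all genes were higher and 5.44% lower. On control diet 3 were higher and 0 lower, where 6.70% were higher and 4.32% lower. The control diet count ran from 1 to 4 with 1 mouse left out, and the count lower on restricted food from 1 to 8 over all alternatives. The list had medians of 0.02 and 0.07 against -0.0026 and -0.014 over all genes. Slpi, a secreted inhibitor of neutrophil elastase, was higher in progeroid livers by 1.0 ± 0.17 on restricted food (adjusted p = 0.000379) and 1.16 ± 0.17 on control diet (adjusted p = 0.000123). Serpina3n, an α1-antichymotrypsin gene, was higher on control diet by 0.54 ± 0.15 (adjusted p = 0.021). Steap4, a metalloreductase gene, was higher on restricted food by 1.04 ± 0.19 (adjusted p = 0.00066), and Hamp2, a paralog of the hepcidin gene, was lower at -1.73 ± 0.24 (adjusted p = 5.01e-05).

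Under restriction 2 of the 26 rose and 2 fell in progeroid livers (6.94% and 5.07% over all genes), and 5 rose and 4 fell in wild type livers (9.92% and 12.6% over all genes), with medians of -0.03 in both against -0.01 and -0.03 over all genes. Saa4, the constitutive serum amyloid A gene between Saa3 and Saa1, averaged 10.69 ± 0.47 in progeroid restricted, 11.43 ± 0.26 in progeroid control, 10.11 ± 0.43 in wild type restricted and 11.86 ± 0.27 in wild type control livers. It fell with restriction as its neighbours did, at -0.74 ± 0.21 in progeroid livers (adjusted p = 0.0263) and -1.75 ± 0.21 in wild type livers (3.37-fold lower, adjusted p = 5.09e-06). Mt1, the metallothionein gene induced by metals and glucocorticoids, rose by 2.34 ± 0.51 in progeroid livers (5.06-fold, adjusted p = 0.00444) and 3.44 ± 0.51 in wild type livers (10.8-fold, adjusted p = 5.37e-05). Hamp2 gave 0.14 ± 0.24 in progeroid livers and rose by 1.83 ± 0.24 in wild type livers (adjusted p = 1.71e-05). Its diet effects differed by -1.69 ± 0.34 (adjusted p = 0.0197), the same direction as for Lcn2. In the cytokine signalling list below, the difference was -1.03 ± 0.25 for Foxa2 (adjusted p = 0.0404) and 1.01 ± 0.24 for Tnfrsf1b (adjusted p = 0.0392). Over all genes 1.03% passed higher in this difference and 0.374% lower. Of 8 measured negative acute phase genes, whose plasma proteins fall in inflammation, 0 passed in limma in either genotype comparison or under restriction in progeroid livers (at an unadjusted p under 0.05, 0 on restricted food, 1 on control diet and 2 under restriction), and in restricted wild type livers Rbp4 rose by 0.12 ± 0.04 and Igf1 fell by 0.23 ± 0.06. Over all genes 17.2% passed for genotype on restricted food and 11.0% on control diet.

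Of 37 measured genes of cytokine signalling upstream of the acute phase, 4 were higher and 3 lower in progeroid livers on restricted food, where 11.8% of all genes were higher and 5.44% lower. On control diet 3 were higher and 6 lower, where 6.70% of all genes were higher and 4.32% lower. Il6 and Tnf, the cytokine genes themselves, were dim, at 2.77 to 2.89 and 3.61 to 3.68 in group means. Socs3, a feedback target of STAT3, averaged 6.85 ± 0.96 in progeroid restricted, 6.71 ± 0.94 in progeroid control, 5.48 ± 0.53 in wild type restricted and 5.60 ± 0.56 in wild type control livers. It was higher in progeroid livers on restricted food by 1.37 ± 0.44 (adjusted p = 0.0348), and on control diet the log2 fold change was 1.11 ± 0.44 (adjusted p = 0.114). Socs3 was looked at after its values were seen. Among genes picked by rule, Myd88 and Tyk2 were higher in progeroid livers on restricted food, by 0.37 ± 0.08 and 0.45 ± 0.11 (limma, adjusted p = 0.00315 and 0.00736). Hnf4a was lower in progeroid livers, at -0.27 ± 0.07 on restricted food and -0.37 ± 0.07 on control diet (adjusted p = 0.0147 and 0.00226). Il1a, which encodes interleukin 1α, was higher in progeroid livers by 0.33 ± 0.10 on restricted food (adjusted p = 0.0223) and 0.49 ± 0.10 on control diet (adjusted p = 0.00233). Il1rap, the co-receptor for interleukin 1, was lower in each of the 4 pairwise comparisons, with log2 fold changes of -0.35 and -0.43 for genotype on restricted and control diet and -0.42 and -0.50 for restriction in progeroid and wild type livers. Under restriction 4 of the 37 rose and 4 fell in progeroid livers, and 2 rose and 7 fell in wild type livers, against 6.94% up and 5.07% down over all genes in progeroid livers and 9.92% up and 12.6% down in wild type livers. Bcl3, a nuclear partner of NF-κB, fell by 0.95 ± 0.14 in progeroid livers (adjusted p = 0.000215) and by 0.72 ± 0.14 in wild type livers (adjusted p = 0.000914). Nfkbiz, which encodes IκBζ, a nuclear cofactor needed for Lcn2 induction in other mouse cells, gave 0.56 ± 0.23 in progeroid livers (adjusted p = 0.129) and rose by 1.39 ± 0.23 in wild type livers (2.62-fold, adjusted p = 0.00019).

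Of 13 measured genes of the glucocorticoid receptor and its targets, 4 rose and 0 fell under restriction in progeroid livers. In wild type livers 4 rose and 0 fell as well, and 9 did not pass in each genotype. The genes that rose were not all the same. Tat, the tyrosine aminotransferase gene, was among the 4 in progeroid livers, while those in wild type livers were Fkbp5, Pck1, Zbtb16 and Per1. Over all genes 6.94% rose and 5.07% fell in progeroid livers and 9.92% rose and 12.6% fell in wild type livers. The list had medians of 0.48 and 0.12 against -0.01 and -0.03 over all genes. Fkbp5, a receptor chaperone gene, rose by 1.51 ± 0.33 in progeroid livers (2.84-fold, adjusted p = 0.00493) and 1.87 ± 0.33 in wild type livers (3.66-fold, adjusted p = 0.00033). Per1, which is also a gene of the circadian clock, rose by 2.37 ± 0.41 in progeroid livers (5.17-fold, adjusted p = 0.000754) and 1.39 ± 0.41 in wild type livers (2.63-fold, adjusted p = 0.0181). The part of the time of sampling in these values was not tested. In the genotype comparisons 0 of the 13 were higher and 2 lower in progeroid livers on each diet. Over all genes 11.8% were higher and 5.44% lower on restricted food, and 6.70% higher and 4.32% lower on control diet. Tat was lower in progeroid livers at -0.47 ± 0.11 on restricted food (adjusted p = 0.00429) and -0.91 ± 0.11 on control diet (adjusted p = 1.02e-05).

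Receptors and binding partners of the members were measured for 20 of 24 genes. On restricted food 9 were higher and 1 lower in progeroid livers, where 11.8% of all genes were higher and 5.44% lower. On control diet 2 were higher and 0 lower, which is near the 6.70% and 4.32% over all genes. The 9 include C1qa, C1qb and C1qc, which bind C-reactive protein and are also among the Kupffer markers above, and the Fc receptor genes Fcgr1, Fcgr3 and Fcer1g. Cd36, a scavenger receptor and fatty acid transporter that can bind serum amyloid A, was higher in progeroid livers by 1.40 ± 0.20 on restricted food (2.64-fold, adjusted p = 4.84e-05) and 1.54 ± 0.20 on control diet (2.91-fold, adjusted p = 2.31e-05). It also rose with restriction by 0.80 ± 0.20 in progeroid livers (adjusted p = 0.0103) and 0.94 ± 0.20 in wild type livers (adjusted p = 0.00142). Fpr2, a formyl peptide receptor that answers serum amyloid A, was higher in progeroid livers on restricted food by 0.71 ± 0.18 (adjusted p = 0.00809) and fell with restriction in wild type livers by 0.57 ± 0.18 (adjusted p = 0.0251).

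Of 13 measured further S100 genes, S100a6 and S100a11 were higher in progeroid livers on both diets and 0 were lower. Over all genes 11.8% were higher and 5.44% lower on restricted food, and 6.70% higher and 4.32% lower on control diet. S100a6, which lies close to S100a8 on chromosome 3, was higher by 0.85 ± 0.18 on restricted food (adjusted p = 0.00188) and 0.98 ± 0.18 on control diet (adjusted p = 0.00086), and S100a11 by 1.01 ± 0.17 (adjusted p = 0.000255) and 0.76 ± 0.17 (adjusted p = 0.0044). S100a6, unlike S100a8 and S100a9, also passed in the diet comparisons, by 0.61 ± 0.18 in progeroid livers and 0.74 ± 0.18 in wild type livers, though the difference between these genes was not tested. Of 12 measured further lipocalins, 1 was lower and 0 higher in progeroid livers on restricted food, against 5.44% lower and 11.8% higher over all genes. It was Apom, which encodes an apolipoprotein carrier of sphingosine 1-phosphate, at -0.51 ± 0.10 (adjusted p = 0.000941). On control diet, where 11.0% of all genes passed, 0 of the 12 passed in limma, with 2 lower at an unadjusted p under 0.05.

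Variation from mouse to mouse was shared by a few pairs of members. With each gene's group means subtracted, 28 pairs among the 8 members above the dim level were correlated over the 20 livers, and 4 pairs passed for both Pearson's r and Spearman's rho after Benjamini-Hochberg adjustment (permutation tests with 100000 resamples, two-sided). Saa1 and Saa2 gave r = 0.987 and rho = 0.976 (p = 1e-05, the smallest these resamples can give, adjusted p = 0.00028 for each), and the probes can share targets. Lcn2 and Orm2 gave r = 0.754 (p = 0.00057, adjusted p = 0.00798) and rho = 0.719 (p = 0.0009, adjusted p = 0.0126). Saa3 gave r = 0.645 with Saa1 (p = 0.00104, adjusted p = 0.00971, rho = 0.668, adjusted p = 0.0162) and r = 0.585 with Saa2 (p = 0.00207, adjusted p = 0.0145, rho = 0.608, adjusted p = 0.0312). Without the 2 livers farthest from the median of the first gene, r was 0.974 for Saa1 and Saa2, 0.657 for Lcn2 and Orm2, 0.562 for Saa1 and Saa3 and 0.616 for Saa2 and Saa3. Crp gave r between 0.609 and 0.619 with the Saa genes, with adjusted p between 0.0858 and 0.263. The 28 values of r ran from -0.465, for S100a9 and Orm2, to 0.987. Lcn2 and Saa1, which diet moved in opposite directions in wild type livers, gave r = -0.091 (adjusted p = 0.843). That value pools unlike groups. Within groups r was -0.072 in progeroid restricted, 0.686 in progeroid control, -0.622 in wild type restricted and 0.718 in wild type control livers.

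**Figure D5:**
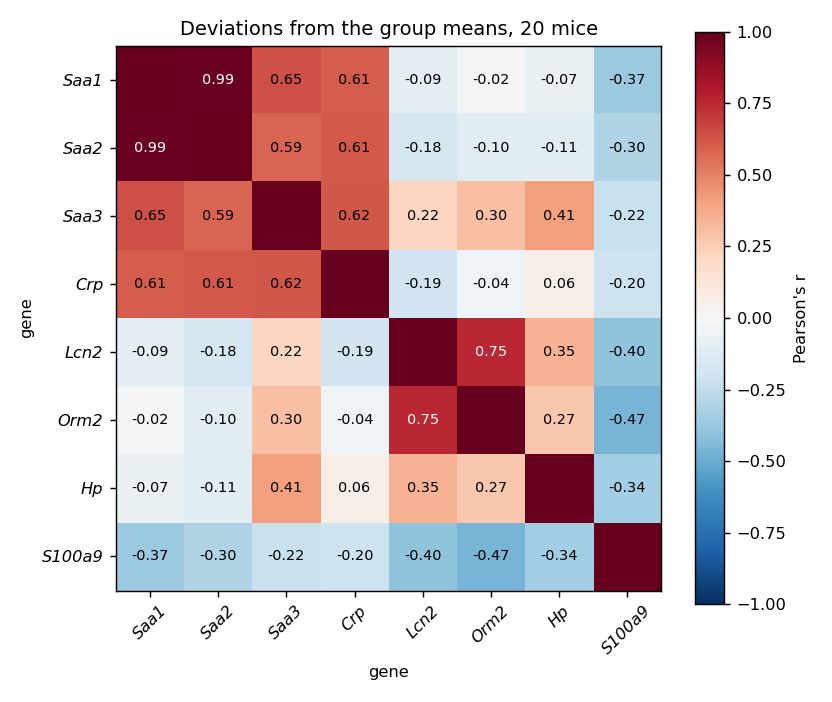
Pearson's r between members over 20 livers after subtraction of group means, for the 8 members above the dim level. The Saa genes gave r between 0.585 and 0.987 with each other, and Lcn2 with Orm2 gave 0.754. Crp gave r between 0.609 and 0.619 with the Saa genes, and these pairs did not pass.

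The genes whose pattern over the 20 arrays was most like that of 4 members are given as a description, since all arrays share the 4 group means. Among 9229 genes above the dim level, Lcn2 was most like Fam118a (r = 0.927), Slc50a1 (0.926), Aprt (0.919), Rcn2 (0.918) and Ctps2 (0.917). Saa1 was most like Saa2 (0.994), Rab29 (0.949), Rfxank (0.947), Steap4 (0.942) and Tmsb10 (0.941). S100a8 was most like S100a9 (0.962), Acot9 (0.925), Spa17 (0.921), Ehd4 (0.916) and Gmfg (0.914) among 9230 genes. Orm2 was most like Lcn2 (0.877), Lgals3 (0.840), Aprt (0.831), Pla2g7 (0.806) and Slc50a1 (0.806). So Aprt and Slc50a1 stood in the first 5 of both Lcn2 and Orm2. Fam118a shared the order of Lcn2, at 6.87 ± 0.18 in progeroid restricted, 6.60 ± 0.15 in progeroid control, 6.28 ± 0.17 in wild type restricted and 5.52 ± 0.12 in wild type control livers.

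Across the promoters, 8 of the 10 members had a RefSeq window of 250 bases before to 50 after the start site, all but Orm1 and Hp. The C/EBP motif TTNNGCAA, read on both strands, was in 6 of these 8, against 10.8% of 32851 promoters, and was present in genes that fell with restriction (Saa1, Saa2, Saa3), genes that rose (Lcn2, Orm2) and S100a9. It was absent from the windows of S100a8 and of Crp, which also fell with restriction. The STAT motif TTCNNNGAA was in 0 of the 8, against 8.3% of all promoters, and the kappaB motif in 0, against 4.51%. Letters alone do not show a bound site, and sites outside the window were not searched.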

How the data were processed

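Liver RNA of 20 mice was measured on Affymetrix arrays, 1 array per mouse, and groups were taken from the source names. The labels number the animals, so the spread within a group is that between mice. The deposited values are log2 expression from RMA, as the submitters' processing notes name it; the sources used here give neither its version nor the array definition. The deposited table held 45141 probe sets with values from 2.19 to 14.51 and array medians from 4.17 to 4.21. The 104 control probe sets were left out. Names came from the platform annotation and were checked by Entrez ID against RefSeq (GRCm38.p6). Of 28898 with 1 symbol 28689 matched and 0 symbols changed, while 551 had several symbols and 15588 none here.

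For each of 17097 genes the brightest probe set, by its mean over the arrays, was used. A mean per group was fitted with limma 3.58.1 in R 4.3.3 (16 residual degrees of freedom), and 5 contrasts were adjusted by Benjamini-Hochberg, each on its own. All tests were two-sided, and the fit was tested on simulated data. The number of arrays limits the precision. No pair of arrays held identical values.

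The members, the gene lists and the tests were chosen with earlier results of these data known. A rule picked genes to be named. It took all members, Ercc1, dim defining markers and the 5 genes most like each of 4 members. From each list it took the 3 genes with the smallest adjusted p in each contrast among those that passed. Not all genes picked from the lists are named, and C4b, Pim3, Mpeg1 and Gzma are among those left out. Values of named genes are also given in other contrasts. Genes named outside the rule are Orm3, Socs3, Il6, Tnf, C1qb, C1qc, Fcgr3 and Fcer1g, chosen after their values were seen. Alternatives were median-centred arrays, a filter on dim genes, the mean of a gene's probe sets, no suffixed probe sets, only the compared groups, eBayes with trend and robust set, array weights, a Gapdh covariate, adjustment over all probe sets and each mouse left out. Leaving out animals 362 and 421 together was chosen after seeing the data.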

Additional observations from a re-analysis of the deposited data

Results flagged for a closer look

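Progeroid restricted animal 362 stood apart from the other 4 mice of its group for 2 members. Its Crp value was 10.77, while the other 4 lay between 11.45 and 11.55 (log2). Its Saa1 value was 8.21, while the other 4 lay between 9.30 and 9.62. Of 40 sets of 5 mice examined in this way, these 2 stood out, and chance flags about 1 in 20 such sets.

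The effect of restriction on Lcn2 differed between genotypes by -1.50 ± 0.36 on the log2 scale, progeroid minus wild type (limma, adjusted p = 0.0413), with a log2 fold change of 0.56 ± 0.25 in progeroid livers and a rise of 2.06 ± 0.25 in wild type livers. The call was near the threshold. It was lost when any 1 of 13 mice was left out (adjusted p between 0.0533 and 0.0802), with trend and robust set (adjusted p = 0.0602) and with adjustment over all probe sets (adjusted p = 0.0544), while the direction held.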

How the results depend on the processing

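Of the 22 member results that passed, 616 of 645 alternative values kept direction and call, 29 lost the call and 0 changed direction. Of 23 that did not pass, 624 of 671 alternative values kept direction and call, 30 passed and 17 changed sign. Without suffixed probe sets 5 members remained measured, because Lcn2, S100a8, Saa2 and Saa3 have suffixed probe sets only. The counts became 3 higher for genotype on control diet (6 before) and 2 higher for genotype on restricted food (6). They became 1 higher and 2 lower for restriction in wild type livers (2 and 4). For the difference of diet effects 0 were lower (1), which the absence of Lcn2 fixed in advance. With Lcn2 measured, that last count was 0 with trend and robust set and with adjustment over all probe sets, where Lcn2 had adjusted p = 0.0602 and 0.0544. With 1 mouse left out, the members lower under restriction in progeroid livers numbered 1 to 4 (1 without 323, 326 or 362), those higher in the difference of diet effects 0 to 1, and those lower in it 0 to 1. Without animals 362 and 421, 2 members were higher in that difference, Saa1 at 1.73 (adjusted p = 0.016) and Saa2 at 2.16 (adjusted p = 0.0108).

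Small values changed sign. S100a8 under restriction in progeroid livers was 0.042 with the Gapdh covariate and ran from -0.20 to 0.072 with 1 mouse left out. S100a9 there ran from -0.12 to 0.17 and was -0.0058 without 362 and 421. Genotype on restricted food gave -0.011 for Hp with median-centred arrays, and for Crp -0.13 to 0.059 with 1 mouse left out and 0.11 without 362 and 421. The Crp difference of diet effects was -0.036 with median-centred arrays and ran from -0.015 to 0.18 with 1 mouse left out. Ercc1 without suffixed probe sets was 0.015 on restricted food and 0.020 on control diet, since another probe set stood for it. For the rest the cause was not tested. No paired analysis was possible because the groups share no animal numbers. Dim genes such as S100a8 lie near the array's lower end, which limits their folds. Counts in the gene lists also moved with single mice: Kupffer markers higher in progeroid livers on control diet numbered 2 to 5 (3 with all mice), Kupffer markers lower under restriction in wild type livers 3 to 7 (4), further positive acute phase genes higher in progeroid livers on control diet 1 to 4 (3), receptors and partners lower under restriction in wild type livers 0 to 6 (3), and cytokine signalling genes higher under restriction in progeroid livers 1 to 6 (4).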
